A study of Mus musculus with 8 samples.

Results

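Expression arrays of mouse embryonic fibroblast Flp-In-3T3 cells were compared between later and earlier passages of the same line. All 8 arrays of the series took part, 3 of later and 5 of earlier passage. Later passage was passage 19 (p19) of the control line, p13 of the Pax6(5a) line and p15 of the Pax6 line, with 1 array each. Earlier passage was p13 of the control line and p8 of the Pax6(5a) line, with 2 RNA preparations each, and p9 of the Pax6 line, with 1 array. The later cells were thus 6, 5 and 6 passages further on than the earlier cells of the control, Pax6(5a) and Pax6 lines. The control line is the unmodified Flp-In-3T3 line, which carries a single site for recombinase-mediated insertion and was kept in 100 µg/ml Zeocin. The other lines carry a mouse cDNA of Pax6, or of its splice variant Pax6(5a), at that site, stably inserted from an expression vector with a constitutive promoter, and were kept in 150 µg/ml hygromycin. All were grown in high-glucose DMEM with 10% fetal bovine serum and were harvested without further treatment. Each line is 1 line, and separate dishes are not stated for the preparations of one passage, so the p-values below measure only the spread between these arrays, which may be technical. The number of passages, the harvest and the dish cannot be told apart in this design.

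Fibroblasts of the 3T3 type keep dividing through serial passage, and their expression is known to follow the nutrients and growth factors left in the medium. When an amino acid runs short or unfolded protein collects in the endoplasmic reticulum (ER), kinases slow translation while that of the transcription factor Atf4 increases, and Atf4 and its partners switch on amino acid transporters, biosynthetic enzymes, aminoacyl-tRNA synthetases and feedback regulators. When membrane cholesterol is low, Srebf2 is released from the ER and switches on the enzymes of cholesterol synthesis.

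Values below are the deposited quantile-normalized intensities, in arbitrary units, of 24613 probes. Each gene is given by its brightest probe, and intensities of different genes are not compared with each other. Detection meant a detection p under 0.01, which was met by 10083 to 10685 probes per array. Of 10 fibroblast markers, 8 were detected on all arrays, Lum on 7 and Col3a1 on 2, and their summed intensity was 39876 to 43465 in later passage and 38997 to 47231 in earlier passage. No epithelial, macrophage, muscle or adipocyte marker was detected on any array, and of the endothelial markers only Cdh5 was. Of 3 neuron markers Tubb3 was detected on 8 arrays and Snap25 on 4, and of 4 smooth muscle or myofibroblast markers Acta2 on 8 and Tagln on 2. Of these, Acta2 rose 1.59-fold in the Pax6 line (adjusted p = 0.0493), and none was called across lines. Other Acta2 probes detected on all 8 arrays gave 0.42 and 0.22 log2 in the Pax6 line, and -0.10 and 0.15 log2 across lines. The part of these markers in the results was not tested. In what follows, the later value is given for the control, Pax6(5a) and Pax6 lines in that order, and then the earlier values in the same order of lines, with both preparations where there were 2. The test was limma with the line as a block, and a probe was called at an adjusted p under 0.05, Benjamini-Hochberg over all probes.

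A modest set of genes moved in the same direction in all 3 lines, led by a fall of amino acid response genes and some ER stress genes and by a rise of the Id genes. Across lines 623 probes (2.53%) were called, 300 higher (1.22%) and 323 lower (1.31%) in later passage, and by their brightest probe 231 genes rose and 208 fell among 15967. The differences were small: 65 of the called probes reached 1.5-fold and 9 reached 2-fold, while the median absolute difference of the 10801 probes detected on at least 3 arrays was 0.09 on the log2 scale. The median SD between the preparations of one passage was 0.06 log2 in control p13 and 0.05 in Pax6(5a) p8. At the stricter thresholds of the study's methods, 16 probes passed an adjusted p under 0.001 with 1.7-fold (8 higher, 8 lower) and 55 passed 0.01 with 1.5-fold (27 higher, 28 lower). The later array lay outside the earlier arrays of its own line, on the same side in all 3 lines, for 616 of the 623 called probes, against 4887 of all probes (19.9%; 10% above and 9.85% below). The number of calls rested on the libraries used. It was 199 without Pax6(5a) p13 and 341 without Pax6 p9 or p15, each of which takes its line out of the passage contrast. It was 326 and 356 without the first or the second Pax6(5a) p8 preparation. All 623 kept their sign in every one of these fits. The kept signs and the 616 are a description, since the same arrays made the calls. In these bulk samples, fewer cells of a type and less RNA per cell cannot be told apart.

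**Figure D1:**
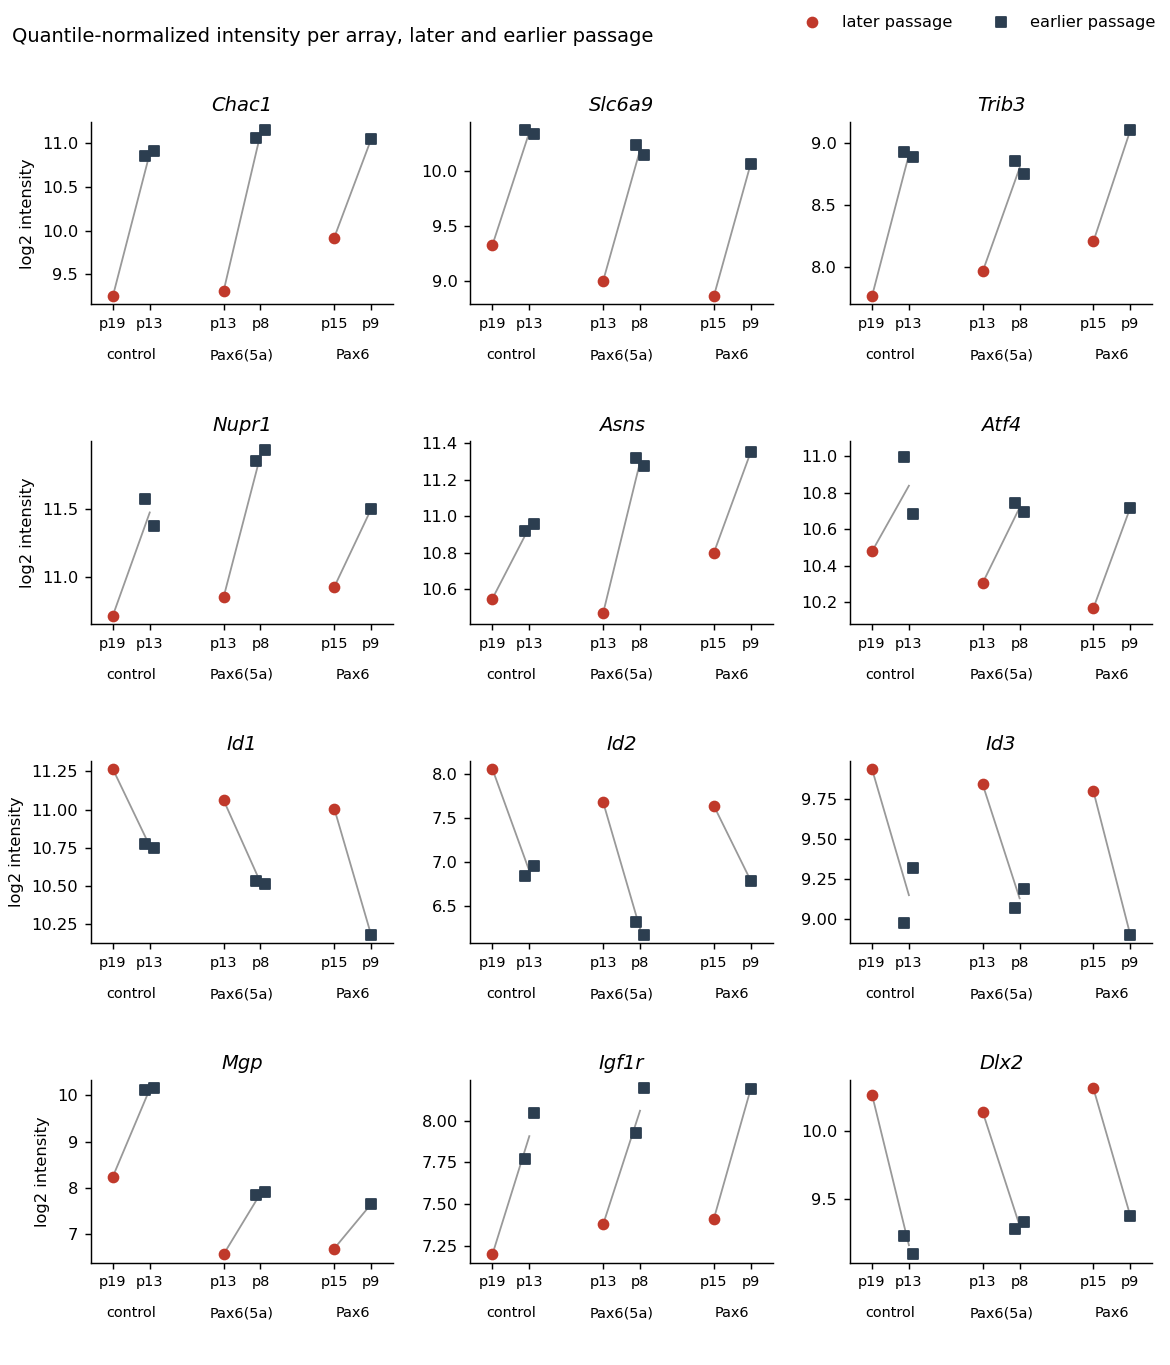
Normalized intensity on a log2 scale (vertical axis) of 12 genes on every array, by line; red circles are later and dark squares earlier passage, and the lines join their means. Chac1, Slc6a9, Trib3, Nupr1, Asns, Atf4, Mgp and Igf1r lay lower and Id1, Id2, Id3 and Dlx2 higher in later passage in all 3 lines.

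On the amino acid and ER stress response list, many amino acid response genes and some ER genes fell in later passage. Of 45 measured genes of this list, 17 fell and 0 rose, that is 37.8%, against 1.31% of probes lower among all probes. The median log2 difference of its 35 detected members was -0.24, with 32 of them negative, against 0.01 over all detected genes. By line the median was -0.16 in the control line, -0.30 in the Pax6(5a) line and -0.46 in the Pax6 line. For 22 of the 45 genes (48.9%, against 9.85% of all probes) the later array lay below every earlier array of its line in all 3 lines, and for 2 it lay above. Calls fell to 7 without Pax6(5a) p13 and to 8 without either Pax6 array, each of which takes its line out of the passage contrast.

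Chac1, an Atf4 target that breaks down glutathione, had the largest fall among called genes that changed in the same direction in all 3 lines. Its intensity was 609.6, 634 and 969.7 in later passage, against 1852 and 1921, 2133 and 2264, and 2111 in earlier passage. Each later array lay well below all 5 earlier arrays (2.93-fold lower, log2 difference -1.55, SE 0.10, adjusted p = 1.62e-06). In the lines' own contrasts it fell 3.09-fold in control cells (adjusted p = 3.32e-05), 3.47-fold in Pax6(5a) cells (adjusted p = 7.07e-05) and 2.18-fold in Pax6 cells (adjusted p = 0.00321). Slc6a9, a glycine transporter, read 644, 513 and 466 in later passage, against 1328 and 1296, 1211 and 1134, and 1075 in earlier passage. Again the groups did not overlap (2.20-fold lower, log2 difference -1.13, SE 0.07, adjusted p = 1.62e-06). Trib3, a pseudokinase that Atf4 induces and that restrains it in turn, read 217, 249.6 and 295 in later passage, against 486 and 472, 462 and 429, and 549 in earlier passage. It was lower on every later array (1.95-fold lower, log2 difference -0.96, SE 0.07, adjusted p = 1.32e-05), and its other probes fell 1.69-fold and 1.46-fold.

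Nupr1, a small stress-induced chromatin protein, read 1684, 1848 and 1948 in later passage, against 3049.9 and 2656, 3689 and 3918, and 2896 in earlier passage. No later array reached the earlier range (1.75-fold lower, log2 difference -0.81, SE 0.09, adjusted p = 0.00028). Atf4 itself read 1426, 1266 and 1149.8 in later passage, against 2040.5 and 1642, 1712 and 1657, and 1684 in earlier passage, again without overlap (1.35-fold lower, log2 difference -0.43, SE 0.08, adjusted p = 0.0105). A second Atf4 probe fell 1.78-fold (adjusted p = 4.27e-05). Atf5, a related factor, fell 1.35-fold. Ddit3, which encodes the factor Chop, read 519, 394 and 391 in later passage, against 949 and 893, 613 and 724, and 454 in earlier passage. It fell (1.55-fold lower, log2 difference -0.63, SE 0.10, adjusted p = 0.0042), although the Pax6 line on its own gave -0.21 log2 (adjusted p = 0.618) and Pax6 p9, an earlier array, lay below control p19, a later one.

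Among the biosynthetic genes Asns, which makes asparagine, read 1499, 1419 and 1784 in later passage, against 1939 and 1993, 2553 and 2482, and 2615 in earlier passage. All later arrays were lower (1.51-fold lower, log2 difference -0.59, SE 0.08, adjusted p = 0.00158), but its second probe gave -0.21 log2 with an adjusted p of 0.202. Mthfd2 of mitochondrial one-carbon metabolism (1.42-fold), Psat1 of serine synthesis (1.29-fold; its second probe gave -0.17 log2, adjusted p = 0.338) and the neutral amino acid transporter Slc7a5 (1.46-fold) also fell. So did the synthetases Nars (1.35-fold), Aars (1.27-fold) and Sars (1.22-fold). Slc7a5 fell 1.67-fold in Pax6(5a) cells and 1.74-fold in Pax6 cells, against a log2 difference of -0.15 in control cells (adjusted p = 0.626). The others were not called in control cells alone either. There Asns gave -0.39 log2, Sars -0.22, Mthfd2 -0.16, Psat1 and Aars -0.14 and Nars -0.13. In the own contrasts of the other lines, Mthfd2 was called in both and Asns in Pax6(5a) cells only. Psat1, Nars, Aars and Sars were called in no line on its own. The difference between lines was not called for Slc7a5 (interaction adjusted p = 0.271), nor for any other gene of the list. An unadjusted interaction p under 0.05 was held by 17 of the 45 list genes, against 2252 of all 24613 probes. Cth of cysteine synthesis was detected on 1 array, so its fall is only a bound of at least 1.01-fold. Aldh1l2, a mitochondrial folate enzyme outside the list, read 153, 154 and 153 in later passage, against 210.1 and 253, 243 and 249, and 253 in earlier passage (1.58-fold lower, log2 difference -0.66, SE 0.07, adjusted p = 0.00053).

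In the ER branch Herpud1 and Xbp1 fell, while the listed chaperones and folding enzymes were not called. Herpud1, which serves the degradation of misfolded ER proteins, read 155, 132 and 177 in later passage, against 226 and 221, 202 and 232, and 256 in earlier passage (1.51-fold lower, log2 difference -0.60, SE 0.07, adjusted p = 0.000666). Xbp1, the transcription factor activated by Ire1, read 2113, 1784 and 2244 in later passage, against 3629.7 and 3788, 2573 and 2457, and 2925 in earlier passage. Its later values lay below all earlier ones (1.49-fold lower, log2 difference -0.58, SE 0.08, adjusted p = 0.00178). The ER chaperone Hspa5, picked out after its values were seen because it is the standard marker of unfolded protein in the ER, gave a log2 difference of 0.00 with an adjusted p of 0.999. The ER genes Calr, Creld2, Dnajc3, Edem1, Hsp90b1, Pdia4, Pdia6 and Sdf2l1 of the list were not called either.

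**Figure D2:**
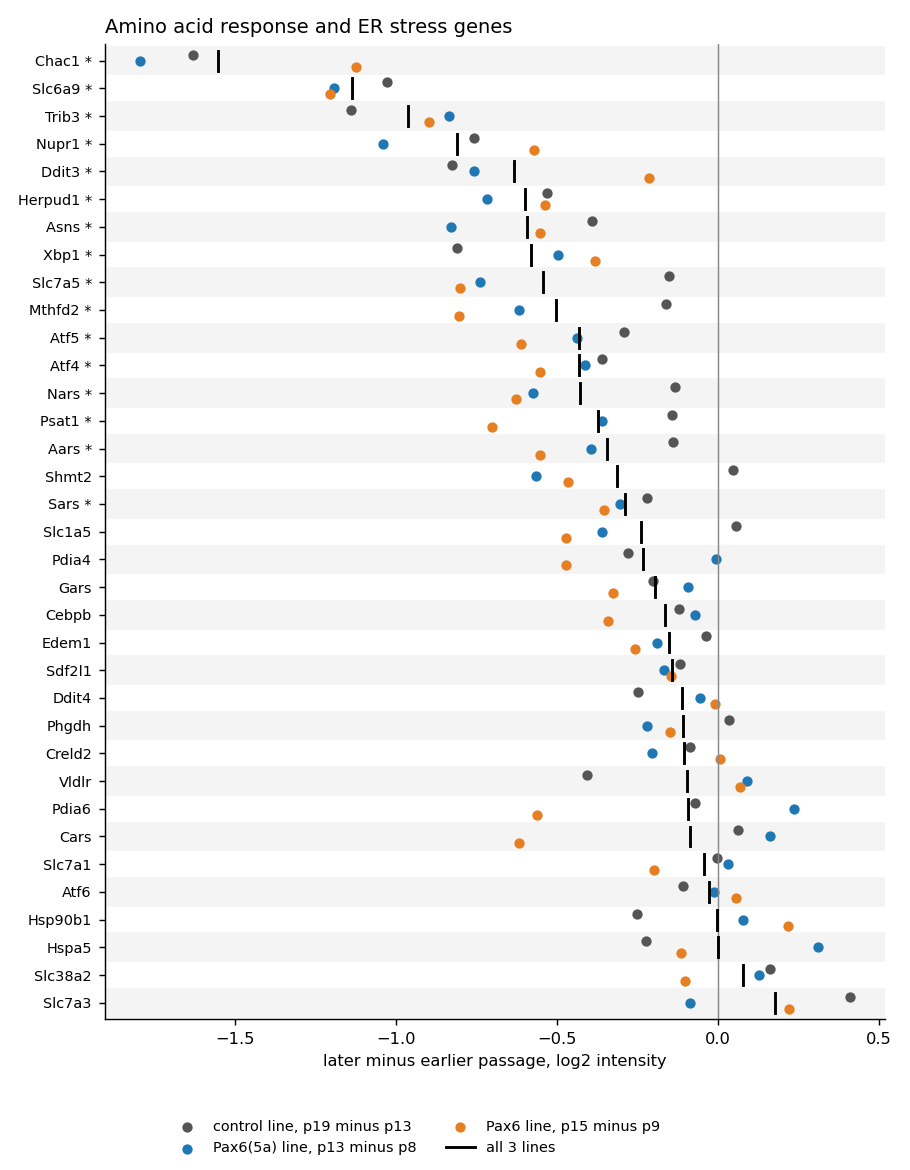
Later minus earlier difference (horizontal axis, log2) of the 35 detected amino acid and ER stress response genes; coloured dots are the 3 lines, black ticks the fit over all lines and asterisks mark called genes. The ticks of 32 genes lie below 0, with Chac1, Slc6a9, Trib3 and Nupr1 the farthest down.

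Promoters of these genes are shown because many Atf4 targets are induced through a short composite element, bound by C/EBP and Atf proteins, with the letters TGATGNAA. RefSeq promoters (build GRCm38.p6) from 250 bases before to 50 bases after each start site were searched on both strands. The element was found in 1304 of 32851 promoters (3.97%) and in 1219 of 27025 genes with at least 1 start (4.51%). Of the 17 genes that fell, 14 had an entry and 6 of these (42.9%) held the element, namely Aars, Asns, Chac1, Herpud1, Nupr1 and Trib3. Of the 28 other list members, 23 had an entry and 5 (21.7%) held it. The 4 promoters below belong to genes with the values given above. In each the element is in capitals, and the sequence runs 5′ to 3′ along the strand of the gene. They lie at chr2:119350992-119351291 on the plus strand (Chac1), chr2:152344011-152344310 on the minus strand (Trib3), chr6:7693160-7693459 on the minus strand (Asns) and chr7:126625421-126625720 on the minus strand (Nupr1).
Chac1: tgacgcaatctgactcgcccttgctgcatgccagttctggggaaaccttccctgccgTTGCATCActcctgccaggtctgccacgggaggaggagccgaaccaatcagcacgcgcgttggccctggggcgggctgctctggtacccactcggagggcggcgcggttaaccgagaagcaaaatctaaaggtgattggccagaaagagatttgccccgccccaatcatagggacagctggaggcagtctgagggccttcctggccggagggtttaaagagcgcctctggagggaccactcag
Trib3: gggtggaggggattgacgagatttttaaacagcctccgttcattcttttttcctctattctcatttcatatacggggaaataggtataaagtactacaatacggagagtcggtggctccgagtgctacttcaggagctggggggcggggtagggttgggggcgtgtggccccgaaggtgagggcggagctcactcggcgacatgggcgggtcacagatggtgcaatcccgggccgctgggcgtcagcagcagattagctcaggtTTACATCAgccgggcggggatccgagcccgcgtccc
Asns: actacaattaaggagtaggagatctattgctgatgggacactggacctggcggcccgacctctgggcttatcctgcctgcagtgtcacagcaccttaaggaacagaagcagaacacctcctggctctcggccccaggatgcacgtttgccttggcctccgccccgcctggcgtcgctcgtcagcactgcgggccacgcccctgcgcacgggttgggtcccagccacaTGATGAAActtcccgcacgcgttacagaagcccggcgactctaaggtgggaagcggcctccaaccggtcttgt
Nupr1: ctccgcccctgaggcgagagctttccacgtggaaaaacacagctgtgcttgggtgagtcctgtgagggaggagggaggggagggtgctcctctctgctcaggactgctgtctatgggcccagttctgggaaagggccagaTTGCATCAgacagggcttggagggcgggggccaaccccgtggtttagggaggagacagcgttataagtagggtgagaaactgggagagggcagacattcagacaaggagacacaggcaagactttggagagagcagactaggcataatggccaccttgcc
The element begins 193 bases before the start site in Chac1, 23 in Asns and 110 in Nupr1, and 14 bases after it in Trib3. It reads on the gene's own strand in Asns and on the opposite strand in Chac1, Trib3 and Nupr1. A match of letters is not a measured binding site.

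Several enzymes of cholesterol synthesis fell as well. Of 32 measured genes of cholesterol and fatty acid synthesis, 9 fell (28.1%, against 1.31% of all probes) and 1 rose. The median log2 difference of the 27 detected members was -0.25, with 22 negative, and by line it was -0.26 in the control line, -0.25 in the Pax6(5a) line and -0.13 in the Pax6 line. The later array lay below all earlier arrays of its line, in all 3 lines, for 16 of the 32 genes (50%, against 9.85% of all probes). In the lines' own contrasts 3, 1 and 0 of the 32 genes fell in the control, Pax6(5a) and Pax6 lines. Over all probes 0.91%, 0.593% and 0.333% were called there in either direction. Without Pax6(5a) p13, which takes that line out of the passage contrast, 3 genes fell. Without the whole Pax6(5a) line 0 were called, and the median was -0.20 log2 in both fits.

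Cyp51, which removes a methyl group from lanosterol, led the list with 2121, 1704 and 1283 in later passage, against 3496 and 3131, 2676 and 2695, and 1694 in earlier passage. Within each line the later array was lower (log2 difference -0.58, SE 0.07, adjusted p = 0.000864), while the levels of the lines overlapped. Hmgcs1, which makes the substrate of the rate-limiting step, read 8919, 7400.2 and 6631 in later passage, against 12701 and 11576, 10366 and 9726, and 8572 in earlier passage (1.34-fold lower, log2 difference -0.42, SE 0.07, adjusted p = 0.0048). Insig1, the ER protein that holds Srebf2 back and is itself induced by it, read 312, 250.2 and 226 in later passage, against 490.5 and 509, 369.7 and 336, and 247 in earlier passage (1.38-fold lower, log2 difference -0.46, SE 0.09, adjusted p = 0.0131), and a second detected probe fell 1.41-fold. The other genes that fell were Pmvk (1.36-fold), Lss (1.33-fold), Fdps (1.28-fold), Srebf2 (1.27-fold), Mvd (1.23-fold) and Hsd17b7 (1.20-fold), which apart from Srebf2 are enzymes on the way from mevalonate to cholesterol. Fasn, which makes fatty acids, was the gene that rose. It read 1506, 1464 and 1330.3 in later passage, against 1195 and 1307, 1223 and 1159, and 1122 in earlier passage, so that every later array was above every earlier one (1.21-fold higher, log2 difference 0.27, SE 0.07, adjusted p = 0.0443).

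The sterol regulatory element TCACNCCAC, searched in the same way, occurred in 408 of the 32851 promoters (1.24%; 388 genes, 1.44%). It was found in 1 of the 8 genes with an entry among the 9 that fell (12.5%) and in 0 of 17 other members. That gene was Hmgcs1, whose promoter is printed because its fall was among the called ones and the element stands in it, 137 bases before the start site on the gene's own strand, at chr13:119690101-119690400 on the plus strand of GRCm38.p6, again with the element in capitals.
Hmgcs1: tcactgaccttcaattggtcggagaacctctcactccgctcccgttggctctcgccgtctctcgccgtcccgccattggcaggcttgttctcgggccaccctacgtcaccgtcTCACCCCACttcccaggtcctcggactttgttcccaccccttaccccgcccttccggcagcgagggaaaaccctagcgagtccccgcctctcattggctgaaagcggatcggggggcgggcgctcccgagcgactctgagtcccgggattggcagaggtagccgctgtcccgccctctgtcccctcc
No match in the other promoters says only that these letters are not in that window.

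**Figure D3:**
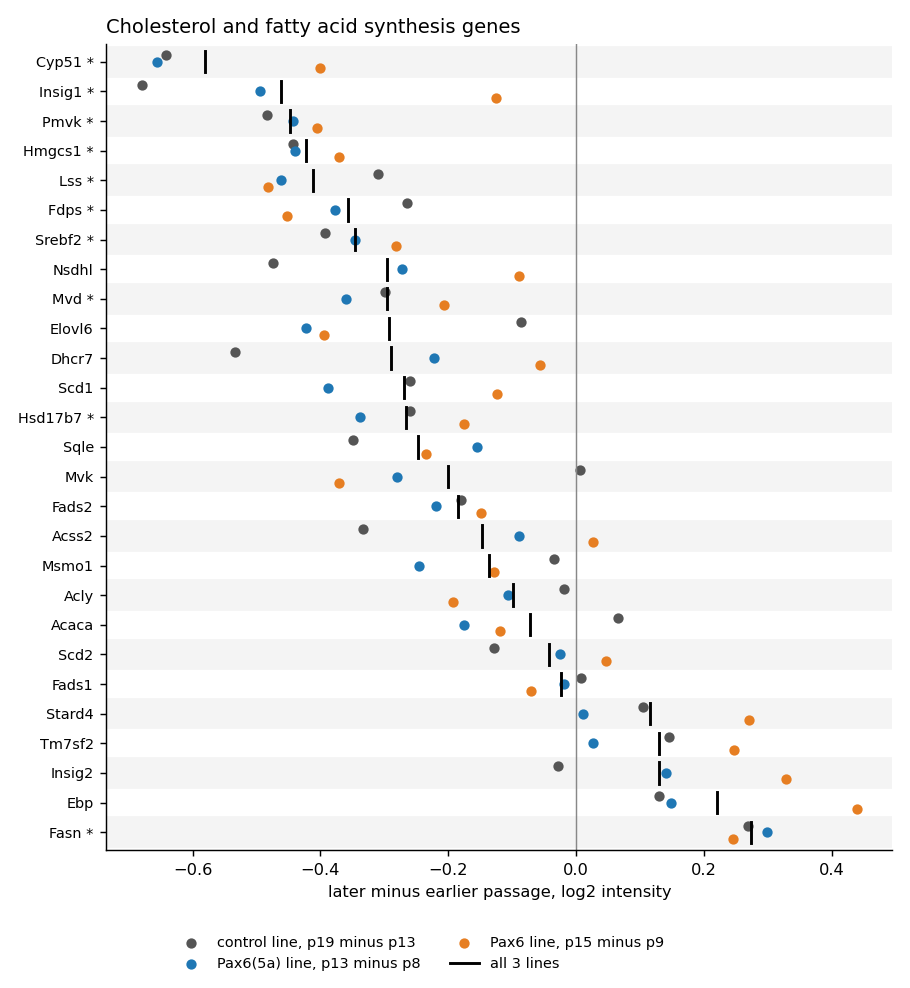
Later minus earlier difference (horizontal axis, log2) of the 27 detected genes of cholesterol and fatty acid synthesis; coloured dots are the 3 lines, black ticks the fit over all lines and asterisks mark called genes. Cyp51 has the lowest tick of the called genes, and Fasn is the called gene above 0.

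Id1, Id2 and Id3 rose together. They encode helix-loop-helix proteins that lack a DNA-binding region and hold back differentiation factors, and they are classic targets of bone morphogenetic protein (BMP) signalling. Id2 read 266, 205 and 199 in later passage, against 115 and 124, 79.8 and 72.2, and 111 in earlier passage. Every later array was above every earlier array (2.25-fold higher, log2 difference 1.17, SE 0.09, adjusted p = 1.32e-05), and 1 of the 5 earlier arrays did not detect it. Id3 read 980.1, 917 and 890.5 in later passage, against 504 and 639.7, 538 and 584, and 478 in earlier passage, with the same order (1.73-fold higher, log2 difference 0.79, SE 0.08, adjusted p = 0.000278). Id1 read 2462, 2139 and 2058 in later passage, against 1754 and 1719, 1485 and 1461, and 1160.4 in earlier passage (1.52-fold higher, log2 difference 0.60, SE 0.07, adjusted p = 0.000666). All 3 Id genes passed the threshold under every alternative tried. Of the 40 measured genes of the TGF-beta and BMP pathway, these 3 and Bmp4 rose and 0 fell (10%, against 1.22% of probes higher among all), while the median of the 26 detected members was 0.01 log2. Bmp4, a ligand, was detected on 1 array, Pax6 p15, so its rise is only a bound of at least 1.06-fold.

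Some genes of cell division rose slightly in later passage. Of 55 measured genes of the cell cycle and DNA replication, 7 rose (12.7%, against 1.22% of all probes) and 0 fell. The median log2 difference of the 42 detected members was 0.12, with 35 positive, and by line it was 0.22 in the control line, 0.12 in the Pax6(5a) line and 0.03 in the Pax6 line. For 22 genes (40%, against 10% of all probes) the later array was above all earlier arrays of its line in all 3 lines. The spindle checkpoint gene Mad2l1 had the largest rise. It read 678, 547 and 519 in later passage, against 319.8 and 442, 440.2 and 372, and 351 in earlier passage (1.54-fold higher, log2 difference 0.62, SE 0.11, adjusted p = 0.0074). The cytokinesis motor Kif23 rose 1.39-fold, Pcna, the sliding clamp of DNA polymerase, 1.33-fold and the mitotic kinase Aurka 1.28-fold. Cdc20 (1.26-fold, with its other probes at 0.08 and 0.02 log2 and not called), Anln (1.25-fold) and Birc5 (1.23-fold) made up the rest. The 7 calls became 4 without control p19, 1 without Pax6(5a) p13 and 2 without either Pax6 array. Each of these omissions takes a line out of the passage contrast.

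Genes of growth arrest did not move one way. Of 28 measured, 2 rose and 2 fell (7.14% each, against 1.22% and 1.31% of all probes). The kinase inhibitors Cdkn2c (1.24-fold; its second probe gave -0.09 log2) and Cdkn2d (1.21-fold) rose, while Gadd45a, induced by DNA damage and also by Atf4, fell and read 463, 331 and 488 in later passage, against 707 and 725, 542 and 568, and 590.4 in earlier passage (1.49-fold lower, log2 difference -0.57, SE 0.08, adjusted p = 0.00208). Btg1 fell 1.25-fold, while a second probe detected on all arrays gave -0.26 log2 (adjusted p = 0.118). Cdkn1a, the p53 target p21, was looked up after its values were seen and gave -0.06 log2 with an adjusted p of 0.848.

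Among matrix and adhesion genes the largest change was in Mgp, a secreted inhibitor of calcification. It read 303, 95.2 and 104 in later passage, against 1110.1 and 1132, 231 and 241, and 202 in earlier passage. Control cells had the most at either passage, so that the groups overlapped across lines, but within each line the later array was far lower (2.68-fold lower, log2 difference -1.42, SE 0.12, adjusted p = 2.55e-05). Thbs1, which binds matrix and activates TGF-beta, read 56.9, 67.6 and 82.5 in later passage, against 80.8 and 83.0, 119.7 and 123, and 128 in earlier passage (1.59-fold lower, log2 difference -0.67, SE 0.07, adjusted p = 0.000369). It was detected on all 5 earlier arrays and on 1 of the 3 later ones, Pax6 p15, so its fold is against arrays partly at background. Of 46 measured matrix glycoproteins and proteoglycans 4 fell (8.70%, against 1.31% of all probes), namely Thbs1, Fn1 (1.42-fold), Tnc (1.29-fold) and Bgn (1.26-fold), and 2 rose (4.35%, against 1.22%), namely Prelp and Mfap5 (1.23-fold). Of the other Tnc probes detected on all arrays, 1 fell (-0.42 log2) and 1 gave -0.22 log2 (adjusted p = 0.12). Fn1, the fibronectin gene, was the 1 called fibroblast marker and read 2613, 2071 and 1669 in later passage, against 4790.2 and 4664, 3146 and 3087, and 1569 in earlier passage. This probe was lower in the control and Pax6(5a) lines and gave 0.09 log2 in the Pax6 line (adjusted p = 0.841). A second Fn1 probe, detected on all 8 arrays, gave -0.09 log2 (adjusted p = 0.769), with 0.09 log2 in the Pax6(5a) line, and another, detected on 5, gave -0.38 log2 (adjusted p = 0.0503), so the fall of Fn1 rests on its brightest probe. Of 30 collagen genes 0 were called across lines, and in control cells alone Lox, which crosslinks collagen, fell 1.61-fold and Col5a1 1.55-fold. The integrin chain Itga3 read 372, 455 and 595 in later passage, against 541 and 542, 749 and 705, and 1016 in earlier passage (1.57-fold lower, log2 difference -0.65, SE 0.07, adjusted p = 0.000278), whereas Itgb7 rose 1.44-fold and Itga6 1.25-fold.

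Some targets of Yap and serum response factor, which follow cell tension and serum, fell. Of 37 genes of the contractile, actin, serum response and Yap list, 4 fell (10.8%, against 1.31% of all probes) and 1, Cnn2, rose (1.21-fold; 2.70%, against 1.22%). Ccn1 read 118, 310.3 and 533 in later passage, against 208 and 215, 431 and 499, and 687 in earlier passage (1.53-fold lower, log2 difference -0.62, SE 0.09, adjusted p = 0.00181), although its second probe gave -0.07 log2 (adjusted p = 0.873). Ccn2 fell 1.31-fold over the lines, with -0.56 log2 in control and -0.54 in Pax6(5a) cells but 0.02 in Pax6 cells (adjusted p = 0.967). Ankrd1 fell 1.28-fold, and Actg2 is given below with the genes that differed between lines. Igf1r, the receptor of insulin-like growth factor, read 147, 166 and 170.1 in later passage, against 218 and 264, 243 and 293, and 292 in earlier passage. The later arrays were all below the earlier ones (1.65-fold lower, log2 difference -0.72, SE 0.08, adjusted p = 0.000553). Pappa, a protease that frees the growth factor from its binding proteins, fell 1.52-fold, with 2.10-fold in control cells, and Stc1, an inhibitor of Pappa, rose 1.51-fold. Stc1 read 117, 116 and 116 in later passage, against 71.7 and 75.1, 59.4 and 74.9, and 101 in earlier passage. It was detected on all 3 later arrays but on 1 of the 5 earlier ones, Pax6 p9, so its fold is against arrays mostly at background.

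Secreted and inflammatory genes rose in part. Of 31 measured senescence-associated secreted factors 4 rose (12.9%, against 1.22% of all probes) and 1, Angptl4, fell (1.31-fold; 3.23%, against 1.31%). Stromelysin Mmp3 read 329, 214 and 159.7 in later passage, against 214 and 211, 93.2 and 99.8, and 121 in earlier passage (1.69-fold higher, log2 difference 0.76, SE 0.10, adjusted p = 0.0018). Ccl8 (1.55-fold) and Mmp10 (1.26-fold) also rose, and Cxcl5, called as well, was detected on no array. The acute-phase gene Saa3 read 333, 171 and 161 in later passage, against 119.6 and 121, 90.2 and 93.1, and 130.4 in earlier passage (1.93-fold higher, log2 difference 0.95, SE 0.14, adjusted p = 0.0025), with the largest rise in the control line. S100a8, a calcium-binding protein of inflamed tissue, read 422, 518 and 308 in later passage, against 258 and 222, 307 and 316, and 107 in earlier passage (1.97-fold higher, log2 difference 0.98, SE 0.11, adjusted p = 0.000553). The later Pax6 value of S100a8 lay among the earlier values of the other lines, but within each line the later array was higher. Il33 rose 1.36-fold, with 0.09 log2 in control, 0.73 in Pax6(5a) and 0.53 in Pax6 cells, and was called on its own in Pax6(5a) cells only. Gdnf rose 1.32-fold, and Ctf1 fell 1.24-fold. Ccn5 was detected on 2 arrays, both earlier, for a bound of at least 1.06-fold lower.

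Other genes with large changes belong to transport, transcription and detoxification. Slc40a1, ferroportin, the iron exporter, read 359, 307 and 146 in later passage, against 1082 and 1134, 497 and 523, and 262 in earlier passage (2.12-fold lower, log2 difference -1.08, SE 0.13, adjusted p = 0.000553). The glutamate transporter Slc1a3 read 865, 361 and 351 in later passage, against 1076 and 1140.4, 732 and 767, and 609 in earlier passage (1.66-fold lower, log2 difference -0.73, SE 0.10, adjusted p = 0.00192), and the leak potassium channel Kcnk10 read 111, 100.1 and 109.5 in later passage, against 162 and 147, 199 and 208, and 202 in earlier passage (1.72-fold lower, log2 difference -0.78, SE 0.09, adjusted p = 0.000585). Within every line all 3 were lower in later passage. Chmp4b, a subunit of the membrane-cutting ESCRT-III complex, fell 2.29-fold, and its earlier control preparations stood far apart, at 1786 and 3203. The water channel Aqp1 rose 1.75-fold, while its second probe gave 0.26 log2 (adjusted p = 0.093). The homeobox gene Dlx2 read 1235, 1129.8 and 1274 in later passage, against 599.9 and 546, 621 and 645, and 665 in earlier passage. No earlier array came near the later ones (1.95-fold higher, log2 difference 0.96, SE 0.07, adjusted p = 1.32e-05), and a second probe rose 1.54-fold. The forkhead gene Foxc2 read 148, 153 and 193 in later passage, against 88.1 and 104, 90.3 and 84.3, and 99.6 in earlier passage (1.72-fold higher, log2 difference 0.79, SE 0.08, adjusted p = 0.000206).

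Aldh3a1, an aldehyde dehydrogenase induced through the aryl hydrocarbon receptor, read 349, 125 and 128 in later passage, against 118 and 128, 78.7 and 83.7, and 75.8 in earlier passage (1.97-fold higher, log2 difference 0.98, SE 0.13, adjusted p = 0.00103). It was not detected in Pax6 p9, which makes its rise in that line a bound of at least 1.61-fold. Cyp1b1, induced through the same receptor, rose 1.33-fold. These were the 2 of the 40 oxidative stress and glutathione genes that rose (5%, against 1.22% of all probes), and Gsta4 (1.28-fold) and Gstm1 (1.24-fold) were the 2 that fell (5%, against 1.31%). The importin gene Kpnb1 rose 1.71-fold, although its own-line contrasts were not called (adjusted p = 0.159 in control, 0.0579 in Pax6(5a) and 0.553 in Pax6 cells). The histone genes H2ac18 and H2ac19 rose 2.19-fold and 2.09-fold. Their transcripts are near-identical, so the probes may read both. H2ac18 read 199, 354 and 399 in later passage, against 118 and 130.4, 156 and 172, and 118 in earlier passage. The other histone genes called were Macroh2a1 (1.24-fold higher) and H4c4 (1.24-fold lower).

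The remaining lists held few calls. Over all probes 1.22% were called higher and 1.31% lower. Lysosome and autophagy genes had 3 of 36 higher (8.33%, against 1.22% of all probes), Gpnmb (1.48-fold), Mcoln1 (1.32-fold) and the protease Ctsb (1.23-fold), and a median of 0.15 log2, and for 12 genes (33.3%, against 10% of all probes) the later array was above the earlier ones in all 3 lines. Of 29 chromatin modifiers 2 rose (6.90%), the maintenance methyltransferase Dnmt1 (1.35-fold) and the Polycomb subunit Eed (1.27-fold). Of 24 imprinted genes Peg3 (1.39-fold) and Gnas (1.33-fold) fell (8.33%). Of 44 interferon and antigen presentation genes 1 fell (2.27%), the peptide transporter Tap2 (1.31-fold). Among 35 matrix proteases and inhibitors, Mmp3, Mmp10 and Ctsb rose (8.57%), with the values given above, and Adamts4 and Serpinf1 both fell 1.26-fold (5.71%). Of 16 heat shock and folding genes the small chaperone Cryab rose 1.40-fold and mitochondrial Hspa9 fell 1.20-fold (6.25% each). Of the 38 Wnt pathway genes the receptor Fzd7 rose 1.25-fold and Ccn5 is given above (2.63% each). Of the 40 respiratory chain genes Atp5a1 rose 1.38-fold (2.5%). The shares of the interferon, Wnt and respiratory chain lists are near those of all probes. By the brightest probe, no call was made among 34 hypoxia and glycolysis genes, 28 ribosomal protein genes and 13 reference genes used in PCR. Their medians were 0.04, -0.02 and 0.04 log2. A second probe of Rplp0, a gene of the ribosomal and reference lists, was detected on 2 arrays and was called 1.30-fold higher (adjusted p = 0.0132).

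**Figure D4:**
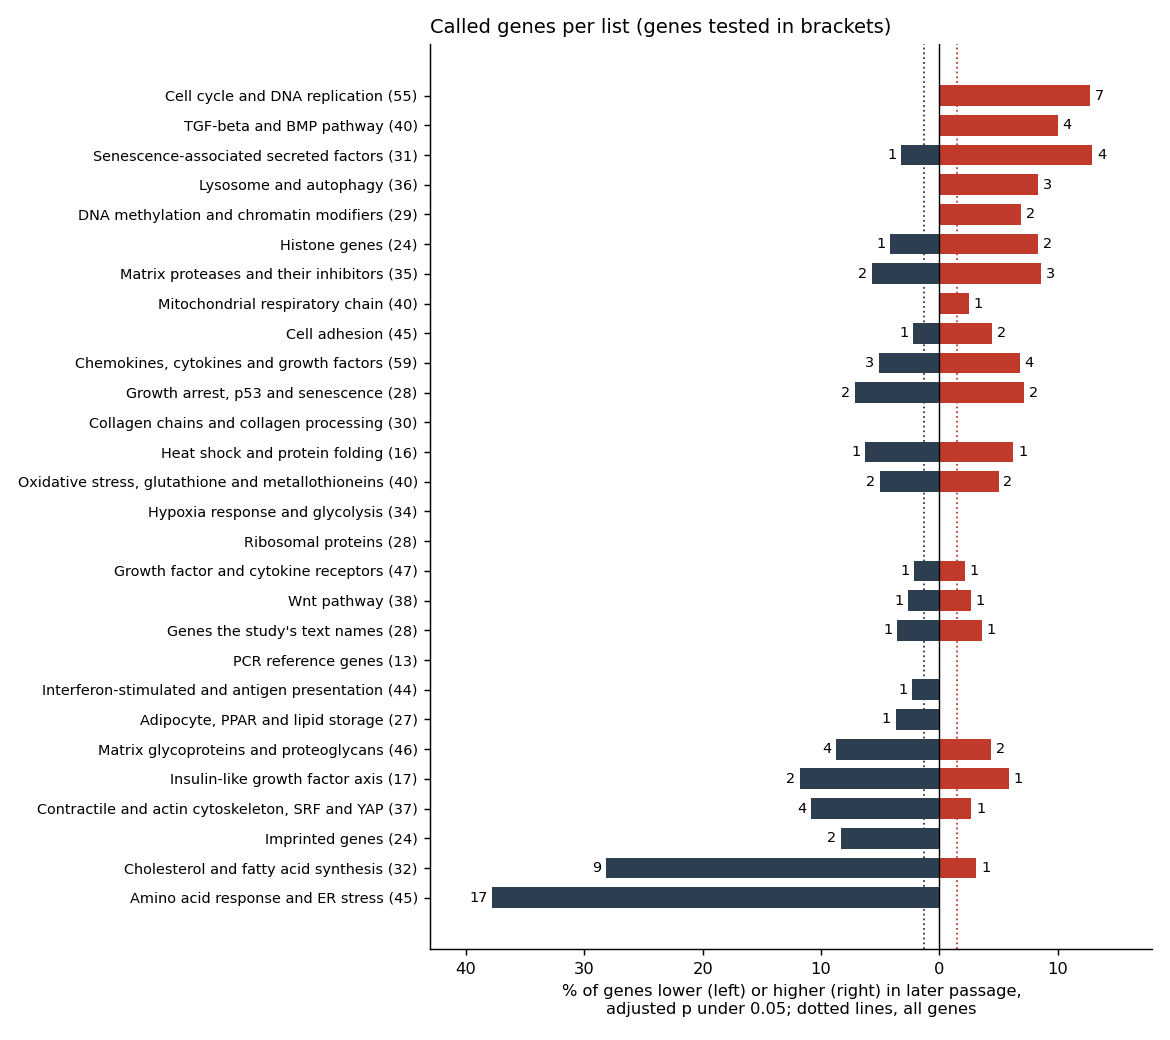
Share of the measured genes of each list (horizontal axis, percent) that were called lower (left) or higher (right) in later passage, with their numbers; dotted lines mark the shares over all genes. The amino acid and ER stress list reaches 37.8% on the left and the cholesterol and fatty acid list 28.1%, and on the right the cell cycle list reaches 12.7% and the senescence-associated list 12.9%.

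The lines were then taken one by one, in a fit with 1 mean for each of the 6 cultures. In control cells 224 probes (0.91%) were called, 85 higher and 139 lower. In Pax6(5a) cells 146 (0.593%) were called, 85 higher and 61 lower, and in Pax6 cells, with 1 array against 1, 82 (0.333%), 53 higher and 29 lower, or 65 higher and 21 lower when arrays were scaled to equal medians instead of equal quantiles. The lone arrays were assumed to vary like the preparations of the other cultures. The call held in at least 2 lines for 64 probes and in all 3 for 16. The Pax6(5a) number was 289 without either control p13 preparation and 78 or 72 without the first or the second p8 preparation, and the Pax6 number was 166 without either control p13 preparation. Whether the change with passage differed between lines was tested by an interaction term, which called 24 probes (0.0975%; 2252 at an unadjusted p under 0.05), and 57 or 59 without the first or the second control p13 preparation.

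The clearest of these differences lay in genes that were near background in some cultures. Fbxw5, which encodes a substrate receptor of ubiquitin ligases, read 63.3, 62.7 and 59.1 in later passage, against 948 and 859, 58.1 and 58.7, and 767 in earlier passage. It was bright only on the 2 control p13 arrays and on Pax6 p9 and was detected on no other. It was thus at least 11.4-fold lower in later control cells and at least 9.45-fold lower in later Pax6 cells, and was not detected in Pax6(5a) cells at either passage (interaction adjusted p = 1.19e-06). The zinc finger gene Zfp472 read 187, 168 and 53.1 in later passage, against 26.9 and 26.9, 115 and 122, and 135 in earlier passage. It was at least 2.43-fold higher in later control cells, at least 1.66-fold lower in later Pax6 cells, and gave 0.50 log2 in Pax6(5a) cells (adjusted p = 0.0589; interaction adjusted p = 1.36e-06). Serpina3n, a secreted protease inhibitor, was detected in control cells only and was 366 at p19, against 89.5 and 83.6 at p13, which is 4.23-fold higher (interaction adjusted p = 0.000157).

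Some genes moved in a pair of lines and not in the remaining one. Egr1, an immediate early gene that responds to serum, read 1007, 742 and 638 in later passage, against 2484 and 2402, 1590.2 and 1400.5, and 481 in earlier passage. It fell 2.43-fold in control and 2.01-fold in Pax6(5a) cells and gave 0.41 log2 in Pax6 cells (adjusted p = 0.264; interaction adjusted p = 0.00936). The smooth muscle actin Actg2 read 134, 202 and 168 in later passage, against 277 and 278, 451 and 436, and 161 in earlier passage and likewise fell 2.07-fold in control and 2.20-fold in Pax6(5a) cells, with 0.06 log2 in Pax6 cells (interaction adjusted p = 0.0389). Prelp, a small leucine-rich proteoglycan, read 2216, 798 and 499.6 in later passage, against 2239 and 2232, 352 and 337, and 174 in earlier passage. It rose 2.32-fold in Pax6(5a) and 2.87-fold in Pax6 cells and gave -0.01 log2 in control cells (interaction adjusted p = 0.00761). Ly6c1, a GPI-anchored surface protein, rose 2.60-fold in control and 1.90-fold in Pax6 cells, with -0.15 log2 in Pax6(5a) cells (interaction adjusted p = 0.00761).

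Others rose by different amounts in the lines. Sfrp1, a secreted Wnt antagonist, read 237, 204 and 131 in later passage, against 104 and 96.5, 239 and 231, and 123 in earlier passage. It rose 2.37-fold in control cells, with -0.20 log2 in Pax6(5a) and 0.10 log2 in Pax6 cells (interaction adjusted p = 0.00949). Ncf4, a subunit of the phagocyte oxidase, rose 2.54-fold in control and 1.52-fold in Pax6(5a) cells and was not detected in Pax6 cells (interaction adjusted p = 0.047). The transcription factor gene Dmrtc2 was at least 2.63-fold higher at p15 in Pax6 cells, rose 1.59-fold in Pax6(5a) cells (adjusted p = 0.0226) and gave 0.14 log2 in control cells, and S100a7a rose 1.90-fold in Pax6 cells (interaction adjusted p = 0.045 for either). H2ac19 rose 2.27-fold in Pax6(5a) and 3.39-fold in Pax6 cells, with 0.42 log2 in control cells (adjusted p = 0.129; interaction adjusted p = 0.045). Hmox1, heme oxygenase and a marker of oxidative stress, had the largest fall called in Pax6(5a) cells, -3.39 log2 (adjusted p = 0.0206). It read 2497, 263 and 4287 in later passage, against 517 and 2127, 2795 and 2729, and 5284 in earlier passage. Its control p13 preparations stood far apart, at 517 and 2127, and it was not called across lines (adjusted p = 0.583).

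**Figure D5:**
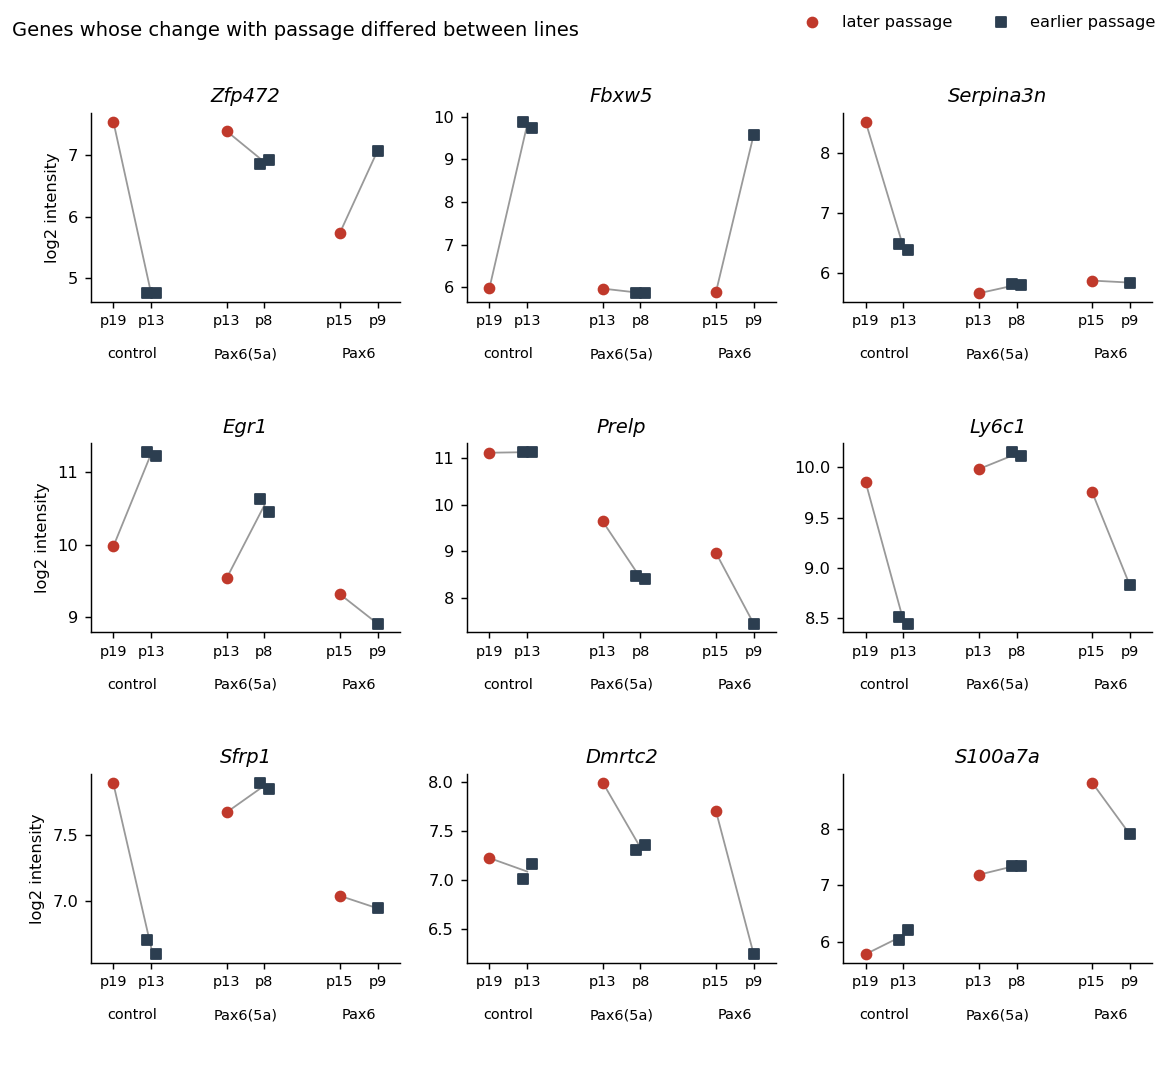
Normalized intensity on a log2 scale (vertical axis) on every array, by line, of 9 genes called in the interaction test; red circles are later and dark squares earlier passage. Fbxw5 falls in the control and Pax6 lines only, Zfp472 moves in opposite directions in those lines, and Serpina3n rises in the control line only.

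One passage number occurred on both sides, p13, which was later for Pax6(5a) and earlier for control cells. For 398 of the 439 called genes (90.7%) the Pax6(5a) p13 array lay beyond both control p13 arrays on the side of later passage, against 9123 of all 15967 genes (57.1%). This is a description, since these arrays took part in the calls. The lines also differ in the inserted cDNA and the selection drug, which cannot be told apart here from passage. The Pax6(5a) p13 array lay on the later side for 15 of the 17 called amino acid and ER stress genes. It did so for 10 of the 10 called genes of the cholesterol and fatty acid list and 7 of the 7 of the cell cycle list.

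Among the genes named in the study's text for their response to Pax6 or Pax6(5a), 1 rose and 1 fell across lines (3.57% each, against 1.22% and 1.31% of all probes). Of 28 measured, Ngef, a guanine nucleotide exchange factor, rose 1.39-fold and Ccn2 fell 1.31-fold, Ccn2 with 0.02 log2 in the Pax6 line as given above. Ngef read 1396, 4810.2 and 2454 in later passage, against 1009.5 and 994, 3880.2 and 4043, and 1472 in earlier passage, so that the later array was higher in each line. In the lines' own contrasts 2 of the 28 genes fell in control cells and 3 rose in Pax6 cells, with 1 array against 1. Over all 24613 probes 139 fell in control and 53 rose in Pax6 cells. An unadjusted interaction p under 0.05 was held by 11 of the 28, against 2252 of all probes, and 0 were called in the interaction test. The Pax6 probe itself was detected on no array in any line, including those with the inserted cDNA (log2 difference 0.08, adjusted p = 0.682), and so the level of the inserted genes at later and earlier passage could not be read from these arrays.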

How the data were processed

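Total RNA of the 8 cultures or preparations was amplified, biotin labelled and hybridised to Illumina mouse bead arrays by the authors. The authors deposited probe intensities before normalization, with a detection p-value for each probe and array, and intensities that they had quantile normalized between the 8 arrays before testing with limma. Quantile normalization of the deposited raw intensities gave the normalized ones to within 5e-06. The scanner software, any background subtraction and the way the detection p-values were computed are not given in the sources used here. Raw median intensities were 63.6 to 70.6, and the number of arrays limits the precision.

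The deposited normalized intensities were taken to log2 here and fitted with limma 3.58.1 in R 4.3.3 (lmFit and eBayes), with 3 lines and a later-passage term (4 residual degrees of freedom). A second fit had 1 mean per culture (2 residual degrees of freedom, from the repeated preparations) for each line's contrast and the moderated F of the line-by-passage interaction. P-values were adjusted over all 24613 probes, none filtered. The code was first tested on simulated data. Of the probes, 20984 had 1 gene symbol, 1 several and 3628 none, so 74 called probes are unnamed. Of 1164 list entries 1010 matched the array, others not being analysed here. Where one side of a contrast was not detected on any array, the fold is a bound against the lowest signal of detected probes.

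Named genes were the 12 largest rises and falls called with one direction in all lines and detected on at least 3 arrays, the 10 called interaction genes with the widest range between lines, the 4 largest rises and falls of each line, the called members of each list (or its 3 largest differences), and the genes of the study's text. The lines, lists and tests were chosen with earlier results of these data known. The alternatives were other background corrections (neqc, normexp), median scaling and cyclic loess, a detection filter, other variance models, other treatments of the preparations, and leaving out arrays or lines. Figures were drawn with matplotlib 3.10.9 in Python 3.11.15.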

Additional observations from a re-analysis of the deposited data

Results flagged for a closer look

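Among the named genes, 13 changed differently with passage between the lines, by the interaction test over all probes. All 13 were detected on at least 3 arrays, and the test called 24 probes in all. The log2 differences are given for the control, Pax6(5a) and Pax6 lines in that order, and the adjusted p is that of the interaction. Fbxw5 (-3.83, 0.10 and -3.70; adjusted p = 1.19e-06), Zfp472 (2.80, 0.50 and -1.34; adjusted p = 1.36e-06) and Serpina3n (2.08, -0.14 and 0.03; adjusted p = 0.000157) differed most, and each was undetected in at least 1 culture. Ly6c1 (1.38, -0.15 and 0.93) and Prelp (-0.01, 1.21 and 1.52) both had an adjusted p of 0.00761. For Egr1 (-1.28, -1.01 and 0.41) it was 0.00936, for Sfrp1 (1.25, -0.20 and 0.10) 0.00949 and for Actg2 (-1.05, -1.14 and 0.06) 0.0389. It was 0.045 for Dmrtc2 (0.14, 0.67 and 1.47), for H2ac19 (0.42, 1.19 and 1.76) and for S100a7a (-0.33, -0.16 and 0.92). For Ncf4 (1.34, 0.61 and 0.18) it was 0.047 and for Saa3 (1.47, 0.90 and 0.30) 0.0481. S100a7a was not detected in control cells and Ncf4 not in Pax6 cells, so their values there are at background. Dmrtc2 was not detected in Pax6 p9, so its rise in that line is a bound of at least 1.40 log2. The Pax6 line entered this test with 1 array per passage. No culture had enough arrays to look for a stray one.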

How the results depend on the processing

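The number of calls changed with the settings. The signs of called probes and genes are a description, since every alternative refits arrays on which the calls were made. All 623 probes called across lines kept their sign under the 21 alternatives (the 598 that stayed in under the detection filter), and all 106 called genes that are named kept theirs, 20 of them with a call under every alternative and 37 with one under neqc. The 623 became 215 with neqc, 202 with the preparations of a passage averaged, 341 without the Pax6 line, 67 without the Pax6(5a) line and 335 without the control line, and 199 to 452 when arrays were left out. Dropping a line or averaging leaves fewer arrays in the fit. Leaving out a later array or Pax6 p9 takes its line out of the passage contrast. Why the counts changed, in these fits or with neqc, was not tested. Counts for the control, Pax6(5a) and Pax6 lines and the interaction were 18, 10, 5 and 2 with neqc, 538, 417, 238 and 41 with the detection filter (10801 probes) and 623, 475, 378 and 136 with a variance trend and robust prior, and the interaction count was 50 with median scaling. Leaving out arrays gave 162 to 224, 72 to 289, 82 to 166 and 16 to 59.

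The 17 amino acid and ER stress genes that fell became 7 with neqc, 8 without the Pax6 line and 6 without the Pax6(5a) line (7 to 18 when arrays were left out). The 9 cholesterol and fatty acid genes became 5 with neqc, 4 with averaged preparations and 0 without the Pax6(5a) line (3 to 8). The 7 cell cycle genes became 2 with neqc, 2 with averaged preparations, 2 without the Pax6 line, 0 without the Pax6(5a) line and 4 without the control line (1 to 6). Hspa5 changed sign around 0, to -0.0071 with neqc, -0.0085 with averaged preparations, -0.0033 with the passage number and -0.18 without the Pax6(5a) line, with -0.18 to 0.13 when arrays were left out. Cdkn1a was 0.10 without the control line, with -0.23 to 0.10 when arrays were left out.

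Replicate numbers only name the preparations: the deviations of same-numbered ones correlated at r = 0.05 over probes. With the replicate number as a block 475 probes were called, 465 of them among the 623, and the lists above gave 15, 7 and 6; 21 named genes lost their call. Probes near background compress differences in these intensities, and 1 array per later culture limits every count.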
